A study of Mus musculus with 8 samples.

Results

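The 10 genes described here are the mouse orthologues of genes at human late-onset Alzheimer disease risk loci that microglia express: *Bin1*, *Picalm*, *Cd2ap*, *Rin3*, *Sorl1*, *Inpp5d*, *Plcg2*, *Abi3*, *Ptk2b* and *Abca7*. They were chosen by name, with earlier results of these data known, and matched by Ensembl identifier. They are 10 of the 55573 genes listed in the count table. All 10 were among the 20153 genes with enough counts to test. Their levels were compared in RNA of microglia, the resident macrophages of the brain, sorted at postnatal day 60 from 4 mice labelled *Smad2/3* fl/fl;*Cx3cr1*Cre (mutants) and 4 mice labelled wild type (controls). Each mouse gave 1 library. TGFβ receptors act on gene expression through the transcription factors SMAD2 and SMAD3. The comparison asks how adult microglia differ in mice with floxed *Smad2* and *Smad3* and *Cx3cr1*Cre.

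Several features limit the groups as a model. Cre was expressed from the *Cx3cr1* locus, which is active in microglia and in related macrophages of the brain's borders. According to the Methods, no true wild-type mice were used as controls, which generally carried Cre together with 1 floxed allele, so the controls may have shared the Cre with the mutants. The Methods also name a different deposit for the *Smad2/3* data and a different library kit from the labels, although both describe unstranded libraries.

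Libraries held 35639502 to 41946479 counts. Across the tested genes, the log2 CPM (read counts relative to library size, scaled by TMM factors) of pairs of control libraries correlated at 0.894 to 0.943, of mutant pairs at 0.87 to 0.929, and of pairs across groups at 0.803 to 0.877. *Smad3* was at 39.5 to 56.9 CPM in controls and at 15.1, 9.61, 35.1 and 17.5 CPM in mutants 1 to 4. Its log2 fold change was -1.33 (SE 0.36, edgeR adjusted p = 0.0429). It passed the test in 1 of the 8 fits that left out a library (edgeR adjusted p 0.00432 to 0.11). *Smad2* was not called (-0.34, SE 0.22, edgeR adjusted p = 0.34); counts over a whole gene need not fall when a floxed part of it is removed. *Xist*, expressed from the inactive X chromosome, was at 99.5 to 183 CPM in all controls and at most 0.562 CPM in the mutants, and the Y-linked *Ddx3y* was at 9.74 to 59.8 CPM in all mutants and at most 0.224 CPM in the controls. Sex-linked expression therefore divided the libraries exactly as genotype did, and the effects of the 2 cannot be told apart. All 10 risk genes are autosomal, which does not tell the effects of sex and genotype on them apart either.

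The products of these genes meet at the plasma membrane and in early endosomes. *Bin1*, *Picalm*, *Cd2ap*, *Rin3* and *Sorl1* take part in bending membrane, in clathrin-mediated uptake and in sorting of cargo, including the amyloid precursor protein. *Inpp5d* and *Plcg2* encode enzymes that act on membrane phosphoinositides below immune receptors such as TREM2, which signal through ITAM adaptors in microglia. *Abi3* and *Ptk2b* link such signals to the actin cytoskeleton, and *Abca7* encodes a lipid transporter.

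Upstream sequence is shown for *Inpp5d* and *Plcg2*, the pair of members with a RefSeq window that fell most, and for *Sorl1*, the member that rose. Each window is the 250 bases before a RefSeq start site on GRCm38.p6, written 5′ to 3′ on the strand of the gene. They are chr1:87620062-87620311 (plus strand) for *Inpp5d*, chr8:117498025-117498274 (plus strand) for *Plcg2* and chr9:42124298-42124547 (minus strand) for *Sorl1*. Capitals mark GGAAGT, a core bound by ETS factors such as PU.1, or its reverse complement ACTTCC.
Inpp5d: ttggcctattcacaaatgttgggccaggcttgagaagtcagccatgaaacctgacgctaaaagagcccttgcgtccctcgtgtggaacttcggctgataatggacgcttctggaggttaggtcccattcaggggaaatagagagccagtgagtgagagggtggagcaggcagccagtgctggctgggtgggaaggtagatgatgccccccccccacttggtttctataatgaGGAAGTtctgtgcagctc
Plcg2: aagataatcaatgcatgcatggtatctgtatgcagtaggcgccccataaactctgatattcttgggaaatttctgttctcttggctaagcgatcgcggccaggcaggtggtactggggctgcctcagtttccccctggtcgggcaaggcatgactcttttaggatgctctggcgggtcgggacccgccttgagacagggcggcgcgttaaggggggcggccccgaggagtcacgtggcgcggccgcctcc
Sorl1: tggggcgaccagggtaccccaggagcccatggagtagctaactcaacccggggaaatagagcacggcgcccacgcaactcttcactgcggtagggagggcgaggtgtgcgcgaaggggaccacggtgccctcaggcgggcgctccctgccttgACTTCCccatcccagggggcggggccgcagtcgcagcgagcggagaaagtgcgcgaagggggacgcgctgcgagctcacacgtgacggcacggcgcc
RefSeq windows were matched for 7 of the 10 genes and gave 9 windows, since *Sorl1* and *Rin3* have more than 1 start site. On both strands, GGAAGT was found in the windows of *Inpp5d* and *Sorl1* shown above and in no other of the 9. CAGAC, a SMAD-binding motif, was found in neither strand of the 3 windows shown, and in 1 further window each of *Sorl1* and *Rin3*. Of all 32851 RefSeq windows of this length, 42.2% held CAGAC and 19.7% held GGAAGT. These matches describe the letters of the windows only.

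In the mutants, 5 of the 10 risk genes fell (*Bin1*, *Inpp5d*, *Plcg2*, *Abi3* and *Rin3*), *Sorl1* rose, and *Picalm*, *Abca7*, *Cd2ap* and *Ptk2b* did not pass the test. Among all tested genes, 12.3% were called in either direction by edgeR's quasi-likelihood test, 7.97% as lower and 4.36% as higher. The median log2 fold change of the 10 genes was -0.94, against 0.01 over all tested genes, and 9 of the 10 values were negative. The CPM of the groups did not overlap for 7 of the 10, whereas this was so for 22.1% of all tested genes. DESeq2 called 20.7% of its 22931 genes and 8 of the 10, adding *Picalm* and *Cd2ap*. In bulk RNA, fewer cells of a type and less RNA per cell cannot be told apart, which holds for every level given here.

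**Figure D1:**
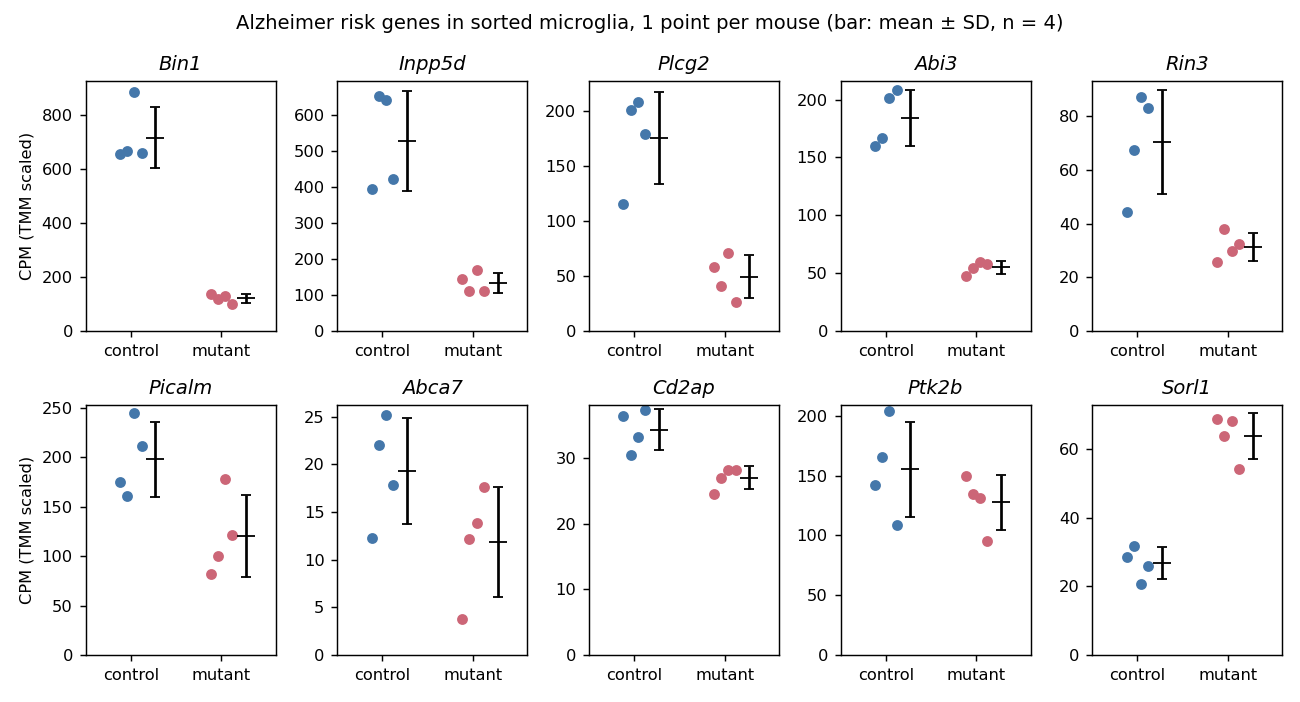
TMM-scaled CPM (y axis, starting at 0) of the 10 risk genes, with 1 point per mouse and the mean ± SD of 4 mice per group. The groups are apart for *Bin1*, *Inpp5d*, *Plcg2*, *Abi3*, *Rin3* and *Cd2ap*, with mutants lower, and for *Sorl1*, with mutants higher.

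*Bin1* encodes a BAR-domain protein of the amphiphysin family that shapes membrane tubules. It lies at chr18:32377230-32435737 (ENSMUSG00000024381, GRCm38, plus strand). In the control libraries 1 to 4 it was at 655, 666, 887 and 658 CPM, and in the mutant libraries at 136, 119, 131 and 101 CPM. Every mutant lay far below every control, and the third control stood above the other controls. The mean was 717 ± 114 CPM in controls and 122 ± 15.7 CPM in mutants (SD, n = 4 each), which left the mutants at 17% of the control level. The log2 fold change was -2.56 (SE 0.17, edgeR adjusted p = 6.32e-05), the largest fall among the 10. Only 6.22% of its exon bases are shared with another gene, the antisense *A830052D11Rik*, which was at most 1.85 CPM in any library.

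*Rin3* encodes an exchange factor that activates Rab5 on early endosomes and binds BIN1. It lies at chr12:102283048-102390855 (ENSMUSG00000044456, plus strand). Its level was 44.5, 67.5, 87.2 and 83 CPM in controls and 25.6, 38.1, 29.7 and 32.5 CPM in mutants. The groups did not overlap, although the lowest control was close to the highest mutant. The log2 fold change was -1.16 (SE 0.23, edgeR adjusted p = 0.0125), a 2.24-fold fall, and the adjusted p stayed between 0.00411 and 0.0416 when each library was left out in turn.

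*Picalm*, at chr7:90130213-90213465 (ENSMUSG00000039361, plus strand), encodes a clathrin assembly protein that recruits clathrin to forming pits. Its level was 175, 161, 245 and 212 CPM in controls and 82.1, 99.8, 178 and 121 CPM in mutants. The third mutant library reached into the control range and the other mutants lay below it. The log2 fold change was -0.72 (SE 0.25) and did not pass the test (edgeR adjusted p = 0.0956). Without mutant 3 the value was -0.98 and passed it (edgeR adjusted p = 0.0275), as it did with DESeq2 on all libraries (-0.73, adjusted p = 0.0453).

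*Cd2ap*, at chr17:42792951-42876665 (ENSMUSG00000061665, minus strand), encodes a scaffold with SH3 domains that joins endocytic proteins to actin. It varied least between mice of the 10, with a coefficient of variation of 9.1% in controls and 6.41% in mutants. Its level was 36.3, 30.4, 33.2 and 37.3 CPM in controls and 24.5, 26.9, 28.2 and 28.2 CPM in mutants. The groups did not overlap, but the difference was small, at -0.35 on the log2 scale (SE 0.14), and was not called by edgeR (adjusted p = 0.149). DESeq2 gave the same log2 fold change and called it (adjusted p = 0.0261).

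*Sorl1* encodes a sorting receptor that, with the retromer, returns cargo from endosomes to the Golgi and the cell surface. It lies at chr9:41964720-42124297 (ENSMUSG00000049313, minus strand). Its level was 28.7, 31.7, 20.8 and 26 CPM in controls and 68.8, 63.9, 68.3 and 54.4 CPM in mutants. All mutants exceeded all controls by a wide margin, and it was the only one of the 10 genes with a positive log2 fold change. The mean rose from 26.8 ± 4.63 to 63.9 ± 6.68 CPM (SD, n = 4 each). This was a 2.38-fold rise, or 1.25 on the log2 scale (SE 0.17, edgeR adjusted p = 0.00191).

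*Inpp5d* encodes SHIP1, a lipid phosphatase of blood and immune cells that removes the 5-phosphate from the lipid made by PI3 kinase and so dampens ITAM signals. It lies at chr1:87620312-87720507 (ENSMUSG00000026288, plus strand). Its level was 395, 653, 640 and 421 CPM in controls and 146, 111, 169 and 112 CPM in mutants. The controls fell into a lower and a higher pair, and every mutant was below the lower pair. The log2 fold change was -1.97 (SE 0.24, edgeR adjusted p = 0.000969), and mutants were at 25.5% of the control mean.

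*Plcg2*, at chr8:117498291-117635142 (ENSMUSG00000034330, plus strand), encodes the phospholipase that cleaves a membrane phosphoinositide into the messengers diacylglycerol and inositol trisphosphate downstream of TREM2. Its level was 116, 201, 208 and 179 CPM in controls and 58.1, 41.2, 71.5 and 26.9 CPM in mutants. The groups did not overlap, and the mutant libraries varied more in relative terms (coefficient of variation 39.4%) than the controls (23.8%). Its log2 fold change was -1.83 (SE 0.32, edgeR adjusted p = 0.00605), a 3.56-fold fall.

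*Abi3* encodes a subunit that can enter the WAVE complex, which drives branching of actin filaments. It lies at chr11:95830074-95842476 (ENSMUSG00000018381, minus strand). Its level was 160, 167, 201 and 208 CPM in controls and 47.9, 54.5, 60 and 58.4 CPM in mutants. Both groups were tight and wide apart, with a log2 fold change of -1.74 (SE 0.15, edgeR adjusted p = 0.000174). However, 75.8% of its exon bases overlap *Gngt2*, *Phospho1* or *Zfp652* on the other strand, and how reads in shared exons were counted is not stated. *Gngt2* itself was at 86.8 ± 10.6 CPM in controls and 102 ± 23.1 CPM in mutants (SD, n = 4 each) and was not called (0.23, edgeR adjusted p = 0.466), nor was *Zfp652* (-0.55, edgeR adjusted p = 0.151), and *Phospho1* was at most 0.259 CPM. The level of *Abi3* is therefore uncertain.

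*Ptk2b*, at chr14:66153257-66281052 (ENSMUSG00000059456, minus strand), encodes PYK2, a calcium-sensitive kinase related to focal adhesion kinase. Its level was 142, 166, 204 and 109 CPM in controls and 150, 135, 131 and 95.7 CPM in mutants. The groups overlapped, although the controls at 166 and 204 CPM lay above every mutant. Mutants differed from controls by -0.28 on the log2 scale (SE 0.22, edgeR adjusted p = 0.452).

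*Abca7*, at chr10:79996494-80015572 (ENSMUSG00000035722, plus strand), encodes a transporter that moves phospholipids across membranes and is linked to phagocytosis. Its level was 12.3, 22, 25.2 and 17.8 CPM in controls and 3.82, 12.2, 13.8 and 17.6 CPM in mutants. The first mutant library was well below the other mutants, whose values ran into the control range. The log2 fold change was -0.70 (SE 0.43) and was not called (edgeR adjusted p = 0.323).

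Per kilobase of exon, the control levels of the 10 genes spanned a wide range, from 174 ± 27.6 CPM per kb for *Bin1* to 2.16 ± 0.197 CPM per kb for *Cd2ap* (SD, n = 4 each). *Bin1* stood above *Inpp5d* (69.3 CPM per kb) and *Inpp5d* above *Abi3* (44.3 CPM per kb) without overlap between libraries. The place of *Abi3* is uncertain in both groups, because the length used includes the 75.8% of its exon bases that overlap other genes. *Abi3*, *Plcg2* (40.9), *Ptk2b* (21), *Picalm* (12.6) and *Rin3* (10.3 CPM per kb) followed, each overlapping the next. After a gap came *Abca7* (2.86), *Sorl1* (2.37) and *Cd2ap* (2.16 CPM per kb), which overlapped in order. In the mutants *Bin1* was still highest, at 29.6 CPM per kb, without overlap with *Inpp5d* (17.7 CPM per kb). *Ptk2b* moved from the fifth to the third place (17.3 CPM per kb) and overlapped *Inpp5d* and *Abi3* (13.3 CPM per kb). *Sorl1* moved above *Rin3*, from 2.37 to 5.64 against 10.3 to 4.61 CPM per kb, though these neighbours overlapped in the mutants. Among all tested genes ranked by CPM per kb, *Bin1* exceeded 98.5% in controls and 88.8% in mutants, and *Sorl1* exceeded 45.1% and 63.6%.

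For each member a paralogue, a gene of the same family, was compared with it within each library, which removes any effect of library scaling. The log2 ratio of member to paralogue differed between groups for 6 of the 10 pairs (two-sided exact permutation over 70 splits, p = 0.0286, the smallest possible, and 0.0476 after adjustment over the 10 pairs for each). That p means only that the groups did not overlap, which held for 22.1% of single tested genes, and the share among gene pairs in general was not computed, so nothing particular to these pairs is read from the count.

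*Sorl1* and *Sort1*, both sorting receptors with a VPS10 domain, diverged most. The log2 ratio of *Sorl1* to *Sort1* was -1.65, -1.75, -2.44 and -2.29 in controls and 1.72, 1.62, 1.69 and 1.35 in mutants, a difference of 3.63. *Sort1* itself fell from 109 ± 15.2 to 21 ± 0.268 CPM (SD, n = 4 each; log2 fold change -2.38, edgeR adjusted p = 4.82e-05), so the receptor with more counts in every control library had fewer in every mutant library.

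*Inpp5d* fell against *Inppl1*, which encodes the broadly expressed phosphatase SHIP2. Their log2 ratio went from 4.41 ± 0.16 to 2.72 ± 0.28 (SD, n = 4 each), a difference of -1.68, and *Inppl1* itself was not called (-0.29, edgeR adjusted p = 0.407). *Abi3* fell against *Abi1*, the family member present in most cells, by 1.11 on the log2 scale, from 1.29 ± 0.27 to 0.17 ± 0.41 (SD, n = 4 each). *Abi1* itself was not called (-0.61, edgeR adjusted p = 0.0692), and the uncertainty in the counts of *Abi3* applies to this ratio too.

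For *Bin1* and *Plcg2* the paralogue fell further than the member. *Bin2*, the form of amphiphysin of blood cells, went from 582 to 927 CPM in controls to 53.7 to 86.8 CPM in mutants (log2 fold change -3.24, edgeR adjusted p = 7.63e-05), and the log2 ratio of *Bin1* to *Bin2* rose from 0.07 ± 0.13 to 0.76 ± 0.11 (SD, n = 4 each). *Plcg1*, the phospholipase used by growth factor receptors, fell from 34.1 ± 5.22 to 3.99 ± 0.986 CPM (log2 fold change -3.09, edgeR adjusted p = 9.76e-05), and the log2 ratio of *Plcg2* to *Plcg1* rose by 1.22.

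*Abca7* fell by 1.59 on the log2 scale against *Abca1*, the cholesterol exporter that loads APOE with lipid. The mutant ratios ranged from -6.35 to -3.77 and the control ratios from -3.46 to -2.76. *Abca1* itself was at 164 ± 41.6 CPM in controls and 270 ± 56.3 CPM in mutants and was not called (0.72, edgeR adjusted p = 0.0715). The exact permutation p of the ratio rose to 0.0571 when any 1 control was left out, although the groups stayed apart. The lowest ratio was that of mutant 1, without which the difference was -1.03 (exact permutation p = 0.0286). The ratios of *Picalm* to *Snap91* (difference -1.59, exact permutation p = 0.143), *Cd2ap* to *Sh3kbp1* (0.64, p = 0.0857), *Rin3* to *Rin2* (0.16, p = 0.629) and *Ptk2b* to *Ptk2* (0.08, p = 0.8) overlapped between groups. *Snap91* was highest in control 1 (47.3 CPM) and mutant 1 (67 CPM), the libraries of each group highest in neuron markers. The part of neuronal RNA in its ratio was not tested. Across the 25 tested paralogues of the 26 listed, 7 fell (28%, against 7.97% of all tested genes) and 0 rose. The median log2 fold change of the 25 was -0.51, and 5 of the 7 calls held whichever library was left out.

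**Figure D2:**
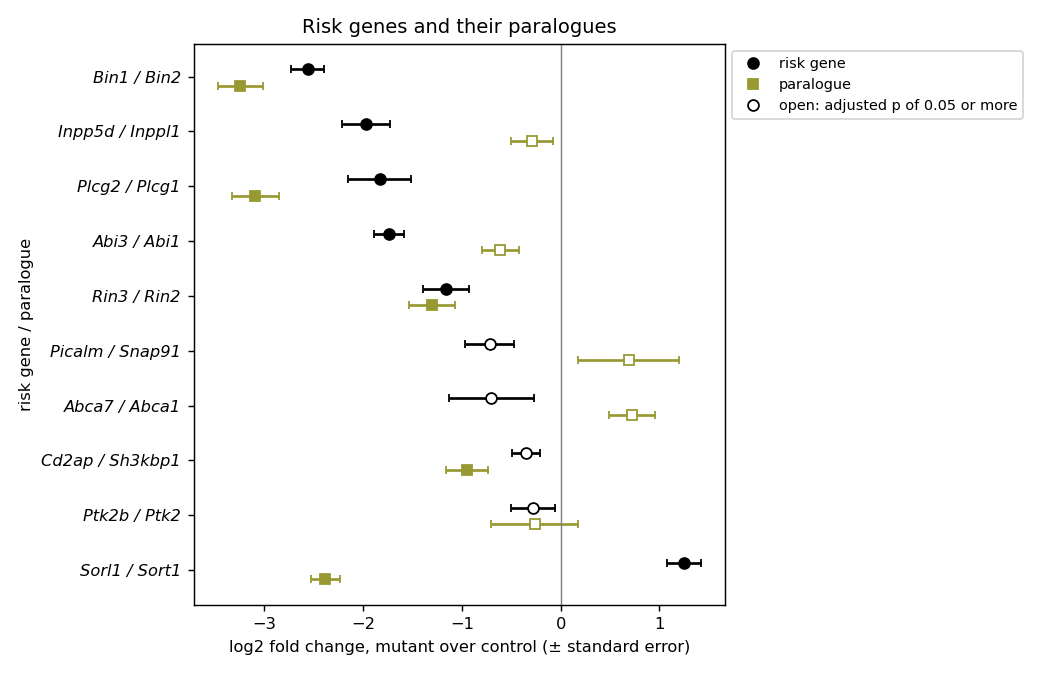
Log2 fold change of mutants over controls (x axis, ± standard error, edgeR) for each risk gene and its paralogue. Filled symbols have an adjusted p under 0.05. *Bin2* and *Plcg1* lie further left than *Bin1* and *Plcg2*, and *Sorl1* and *Sort1* lie on opposite sides of 0.

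**Figure D3:**
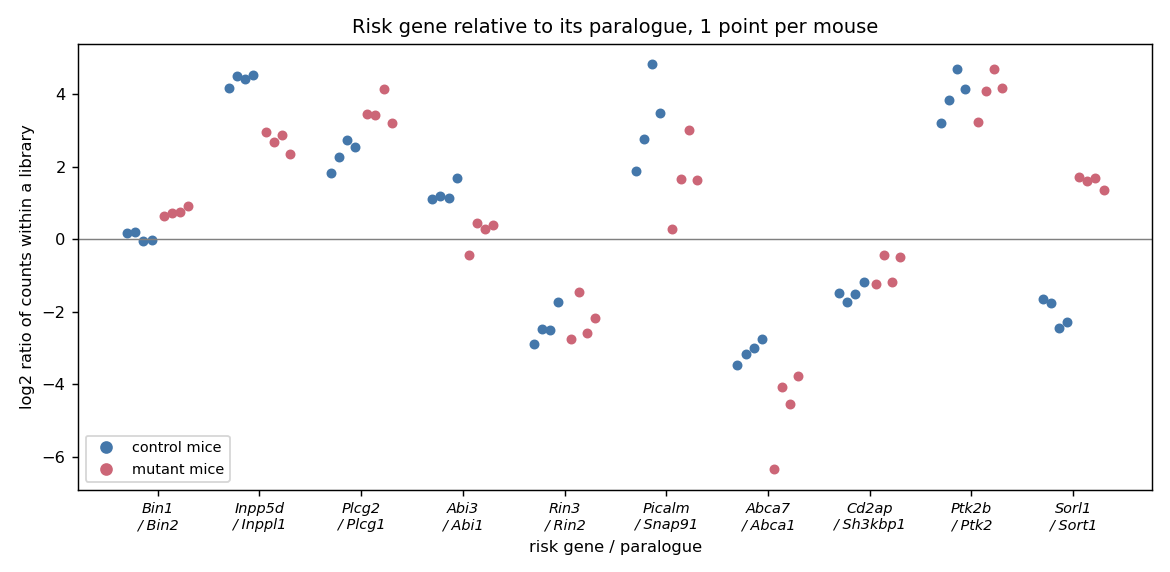
Log2 ratio of counts (y axis) of each risk gene to its paralogue within a library, with 1 point per mouse. Controls and mutants are apart for 6 pairs, most widely for *Sorl1* and *Sort1*, whose ratio is below 0 in all controls and above 0 in all mutants.

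Of 32 genes that act around *Inpp5d* and *Plcg2* in ITAM signalling, 19 fell, 1 rose and 12 were not called. The share that fell was 59.4%, against 7.97% of all tested genes, and the median log2 fold change was -0.98. Among those that fell, *Blnk*, an adaptor that brings PLCγ to the kinase SYK, changed by -1.96, *Card9* by -1.74 and *Vav1*, an exchange factor for Rac, by -1.72 on the log2 scale (edgeR adjusted p = 0.00164, 0.00774 and 0.00532). *Rasgrp3*, an exchange factor activated by diacylglycerol, the product of PLCγ, was at 133 to 227 CPM in controls and 1.09 to 5.51 CPM in mutants (-5.47, SE 0.51, edgeR adjusted p = 0.000236). *Pik3r5*, a regulatory subunit of the PI3 kinase whose product SHIP1 removes, fell from 143 ± 47.7 to 25.5 ± 5.71 CPM (SD, n = 4 each; -2.49, edgeR adjusted p = 0.000604). *Vav3* rose by 2.85 (edgeR adjusted p = 0.0032). Of the 32, 3 were singled out after their values were seen. The receptor gene *Trem2*, counted among the 19, fell (-1.35, edgeR adjusted p = 0.00496). *Tyrobp*, which encodes the ITAM adaptor DAP12 itself, was at 1369.0 ± 304 CPM in controls and 1385.1 ± 222 CPM in mutants (0.02, edgeR adjusted p = 0.971), and neither it nor *Syk* (-0.67, edgeR adjusted p = 0.131) was called. Of the 20 calls in this list, 15 held whichever library was left out, against 54.3% of the calls over all genes.

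In the list of WAVE complex and actin genes around *Abi3*, 6 of 22 fell and 0 rose. The share that fell was 27.3%, against 7.97% of all tested genes, and the median log2 fold change was -0.42. *Cyfip1* and *Nckap1l*, which encode WAVE complex subunits, changed by -1.98 and -1.67 (edgeR adjusted p = 0.000671 and 0.00174), and the other 4 that fell were *Git2*, *Capza1*, *Capza2* and *Pxn*. The calls of *Capza1* and *Pxn* held in 2 and 3 of the 8 fits that left out a library (edgeR adjusted p up to 0.099 and 0.0888), and those of the other 4 in all 8.

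Of 30 clathrin endocytosis genes around *Picalm*, *Bin1* and *Cd2ap*, 25 were not called, 3 rose and 2 fell, with a median log2 fold change of -0.0029. The share called, 16.7%, was near the 12.3% of all tested genes. *Dab2*, a clathrin adaptor for lipoprotein receptors, rose from 39 ± 16.7 to 391 ± 111 CPM (SD, n = 4 each; 3.32, edgeR adjusted p = 0.000633), *Hip1* rose by 2.60 and *Itsn1* by 1.84 (edgeR adjusted p = 0.000983 and 0.00217). *Dnm2*, the dynamin that cuts vesicles free, changed by -1.18 and *Sh3gl1* by -0.74 (edgeR adjusted p = 0.0129 and 0.0262). The call of *Sh3gl1* held in 2 of the 8 fits that left out a library (edgeR adjusted p 0.0213 to 0.076), being lost without any of control replicates 2 to 4 or mutant replicates 2 to 4. In the retromer and GGA list around *Sorl1*, 1 of 13 was called (7.69%, against 12.3% of all tested genes), and the median was 0.02. The called gene was *Snx3*, which rose by 0.76 (edgeR adjusted p = 0.0115).

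Among 39 other orthologues of Alzheimer risk genes, 12 fell, 2 rose and 25 were not called. The share that fell was 30.8%, against 7.97% of all tested genes, and the median log2 fold change was -0.44. *Apoe* rose from 4138.1 ± 1049.6 to 46909.9 ± 4960.8 CPM (SD, n = 4 each; 3.50, edgeR adjusted p = 6.32e-05), and *Scimp*, an adaptor of immune receptors, from 5.38 ± 1.87 to 87.9 ± 20.5 CPM (4.03, edgeR adjusted p = 0.000114). *Cass4*, a scaffold of adhesion kinases such as PYK2, had the largest fall (-2.76, edgeR adjusted p = 0.000286). The others that fell were *Blnk*, *Cd33*, *Ikzf1*, *Tspan14*, *Rhoh*, *Mef2c*, *Trem2*, *Sppl2a*, *Grn*, *Spi1* and *Otulin*. With each library left out in turn, 11 of these 14 calls always held. *Otulin* was called in 0 of the 8 fits (edgeR adjusted p 0.0583 to 0.123), *Spi1* in 1, without control replicate 1 (0.0337 to 0.102), and *Grn* in 7 (0.0146 to 0.0545). The gene lists share members, so their counts are not independent.

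**Figure D4:**
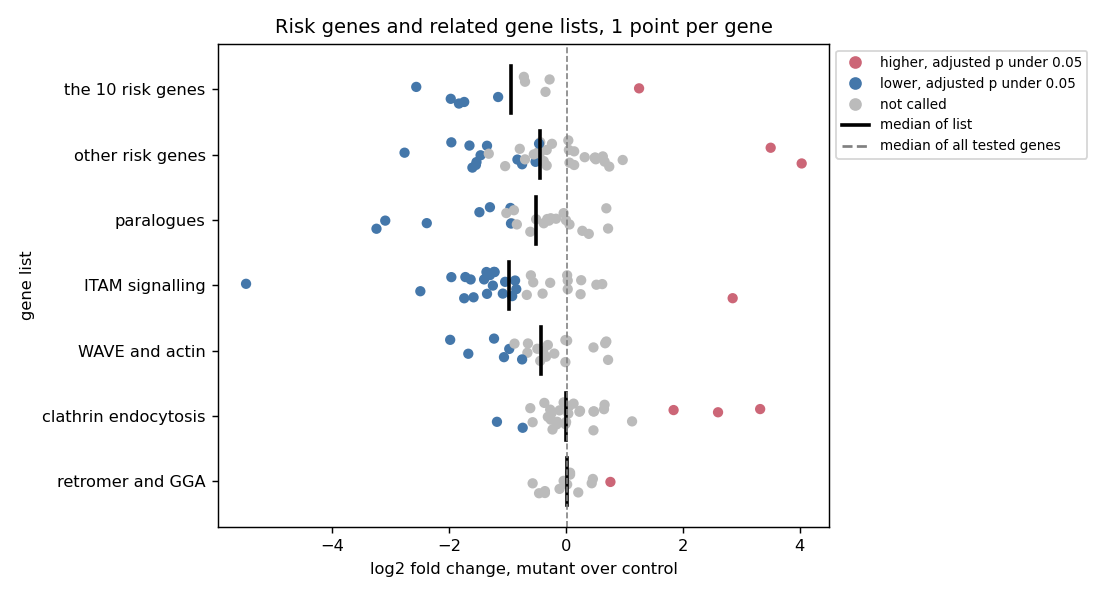
Log2 fold change (x axis) of each tested gene in the 10 risk genes and in 6 related lists (rows), coloured by edgeR call, with the median of each list as a bar and that of all tested genes as a dashed line. The ITAM list has its median at -0.98 and the 10 risk genes theirs at -0.94, and the endocytosis and retromer medians lie close to 0.

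Most microglial markers fell along with the summed risk genes, and most border macrophage markers rose. In controls, *Bin1* (mean 717 CPM) and *Inpp5d* (527 CPM) weighed most in that sum, and *Sorl1*, which rose, weighed little (26.8 CPM). The summed level of the 10 risk genes was 1765.7 to 2550.9 CPM in controls and 648 to 881 CPM in mutants. That of 10 microglial markers went from 29947.3 to 45240.4 CPM in controls to 5974.1 to 8320.4 CPM in mutants, and 8 of the 10 fell, including *P2ry12* (-4.84), *Tmem119* (-3.48) and *Sall1* (-6.11; edgeR adjusted p = 9.76e-06, 4.83e-05 and 0.00118). *Aif1* and *Ptprc* were not called. The summed level of 5 markers of border macrophages was 26.4 to 36.6 CPM in controls and 1564.9 to 2432.3 CPM in mutants. Of these, *Mrc1*, *Cd163*, *Pf4* and *Ms4a7* rose, and *Lyve1*, at 1.87, 1.34, 6.69 and 4.72 CPM in mutants, was not called. The part of these shifts in the levels of the risk genes was not tested.

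None of the 4 monocyte, 4 neutrophil, 7 neuron, 6 oligodendrocyte, 2 oligodendrocyte precursor and 4 tested endothelial markers was called, whereas 2 of 5 lymphocyte markers rose (*Cd3e*, called in 7 of the 8 fits that left out a library, the exception being control replicate 2, and *Nkg7*, also in 7, the exception being mutant replicate 2) and 1 of 6 astrocyte markers fell (*Slc1a3*, -4.10, edgeR adjusted p = 0.00163). Their summed levels were 114 to 257 CPM in controls and 105 to 228 CPM in mutants for monocytes, 383 to 1564.0 and 204 to 682 CPM for neutrophils, 16 to 41.1 and 45.3 to 111 CPM for lymphocytes, and 58.8 to 591 and 161 to 525 CPM for neurons. Astrocyte markers summed to 1311.9 to 1845.1 and 177 to 600 CPM, a gap carried by *Slc1a3*: the other 5 summed to 83.4 to 456 CPM in controls and 151 to 429 CPM in mutants, which overlapped. Oligodendrocyte markers summed to 707 to 4503.3 and 1163.8 to 3794.9 CPM. Oligodendrocyte precursor markers summed to 5.09 to 17.1 and 7.51 to 27.2 CPM, and endothelial markers to 15.3 to 26.7 and 9.75 to 31 CPM. Neuron and oligodendrocyte markers were highest in control 1 and mutant 1, and without both libraries the same 6 risk genes were called, with log2 fold changes of -2.65 for *Bin1*, -2.12 for *Inpp5d*, -2.07 for *Plcg2*, -1.73 for *Abi3*, -1.24 for *Rin3* and 1.26 for *Sorl1*.

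**Figure D5:**
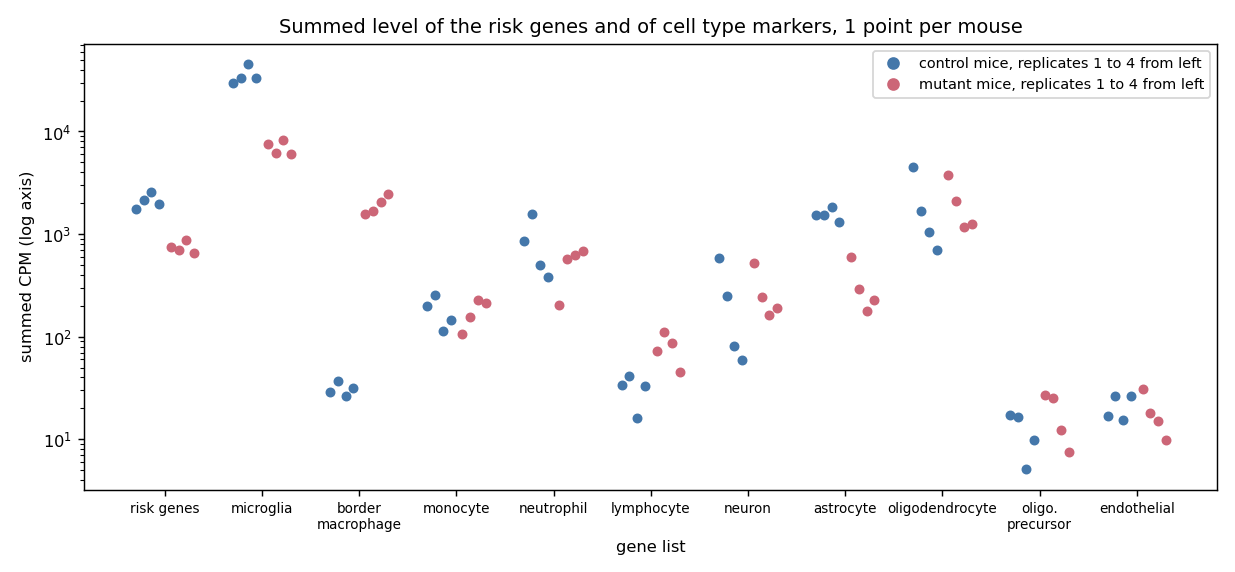
Summed CPM (y axis, log scale) of the 10 risk genes and of the markers of 10 cell types, with 1 point per mouse. The risk genes and the microglial markers are lower in all mutants than in all controls, and the border macrophage markers are higher in all mutants. The astrocyte sum is also lower in all mutants, through *Slc1a3*, and the lymphocyte sum higher.

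For each risk gene, the gene with the most similar profile was sought among 10344 well-expressed genes, as the smallest root mean square difference in centred log2 CPM over the 8 libraries. *Bin1* was closest to *Atp6v0a2* (0.13), a subunit of the proton pump of acidic organelles. *Inpp5d* was closest to *Itgb5* (0.15), *Plcg2* to *Tln2* (0.17), *Abi3* to *Slc46a1* (0.11) and *Rin3* to *Lrwd1* (0.15). *Sorl1* was closest to *Wwp1* (0.14), which went from 14.8 ± 2.51 to 39.5 ± 4.35 CPM (SD, n = 4 each). *Picalm* was closest to *Bcor* (0.12), *Cd2ap* to *Mtx1* (0.09), *Ptk2b* to *Gm10156* (0.06) and *Abca7* to *Gm10138* (0.21). For *Abca7* the second nearest gene was at 0.30 and for *Ptk2b* at 0.08, and for the other members it was almost as close as the nearest.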

How the data were processed

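Each library came from 1 mouse. As the Methods state, the authors used Rsubread for alignment to mm10 and featureCounts for counting per gene, and the deposited counts were used as raw whole numbers; settings for strand and for overlapping genes are not given in the sources used here. A deposited table of the authors' DESeq2 comparison (fold changes, errors, p-values) was not used.

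The filter required 10 or more counts in 4 or more libraries. Counts were scaled by TMM and tested with edgeR 4.0.16 (quasi-likelihood, R 4.3.3, no block), with Benjamini-Hochberg adjustment over 20153 genes and calls at an adjusted p under 0.05. CPM are TMM-scaled. DESeq2 1.42.0 was an alternative, and its submitters' version was 1.28. Standard errors (SE) of edgeR fits were derived as the absolute log2 fold change divided by the square root of the quasi-likelihood F statistic. The biological coefficient of variation was 0.542. Log2 ratios to a paralogue used counts plus 0.5. The scripts were tested on simulated data. Coordinates and exon lengths are those of GENCODE M21, which matched 55480 listed genes. Python 3.11.15, pandas 2.3.3 and scipy 1.17.1 were used.

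The members, gene lists and paralogues were chosen with earlier results of these data known, and support no independent claim. Genes named with values are the 10 members, their paralogues, the nearest profile of each (mean of at least 3 log2 CPM), at most 5 called genes per list and direction with the largest change, the targeted genes and sex-linked genes. Outside this rule, *Tyrobp*, *Syk*, *Trem2*, *Lyve1*, the genes that overlap *Abi3* or *Bin1*, and genes whose call depended on 1 library were named after their values were seen. The labels do not say whether libraries of 1 group came from separate litters or sort days.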

Additional observations from a re-analysis of the deposited data

Results flagged for a closer look

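In groups of 4 libraries, a value was picked out when its gap to the nearest other library took up nearly the whole range of the group (Dixon's test at the 95% level), which chance alone gives in about 1 of 20 groups; 2 of 40 groups tested were picked out. *Bin1* in control replicate 3 was at 887 CPM, whereas the other controls lay between 655 and 666 CPM. The log2 ratio of *Abi3* to *Abi1* in control replicate 4 was 1.69, whereas the other controls lay between 1.12 and 1.19. Their causes were not tested.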

How the results depend on the processing

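The 10 risk genes kept their direction and side of the threshold in 146 of 150 values, each being 1 gene in 1 alternative fit. The other 4 values added calls. These were *Picalm* with DESeq2, without mutant replicate 3 and with the replicate block, and *Cd2ap* with DESeq2 (-0.35, adjusted p = 0.0261). Library totals in place of TMM moved the median log2 fold change of all genes from 0.01 to 0.13. DESeq2 called 4751 genes (2089 higher, 2662 lower), against 2485 with edgeR. Leaving out 1 library gave 1567 to 2499 calls, with 525 to 1024 higher and 1005 to 1587 lower, the fewest without control replicate 2 or 3. Without control replicate 1 and mutant replicate 1, an alternative chosen after seeing the data, 1917 genes and 6 risk genes were called.

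The labels number the mice 1 to 4 in both groups. Same-numbered libraries deviated together with correlations of 0.17, 0.02, 0.14 and 0.11, and differently numbered ones with -0.22 to 0.11. These values do not settle whether the numbers mark pairs. The main fit took no pairs because the Methods name no block. With the replicate block, 2383 genes and 7 risk genes were called, *Picalm* being added (-0.76, edgeR adjusted p = 0.0286). Paired ratios cannot pass, since 4 pairs allow an exact permutation p of 0.125 at best, and 0 ratios did. The ratio differences that changed sign were not called in any setting. *Ptk2b* to *Ptk2* went from 0.08 to -0.18 without control replicate 1 and -0.14 without mutant replicate 3 (range -0.18 to 0.35 over libraries left out), and *Rin3* to *Rin2* from 0.16 to -0.0042 without control replicate 1 and -0.10 without mutant replicate 2 (range -0.10 to 0.38).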
